A study of Mus musculus with 12 samples.

Results

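Anti-CD40 and Pam2CSK4, each given alone, were compared in resting B (RB) cells. The comparison used 4 of the 12 arrays of the series, namely the 2 anti-CD40 arrays and the 2 Pam2CSK4 arrays, which were chosen by their treatment labels and not by any measured value. Anti-CD40 is an antibody to CD40, and Pam2CSK4 is a synthetic lipopeptide that stimulates TLR-2. No group of the series is labelled as given an isotype control antibody, so an effect of antibody as such was not tested. All RB cells came from spleens of female BALB/c mice 6 weeks old, were enriched by removing CD43-bearing cells, and were harvested 4 h after stimulation in RPMI medium with fetal calf serum. The other groups used here were unstimulated RB cells and RB cells given anti-CD86 alone, with 2 arrays each. The remaining arrays, anti-CD86 with Pam2CSK4 and anti-CD40 with Pam2CSK4, were not compared. They entered the shared estimate of the spread, the choice of probes to test and the choice of the brightest probe of each gene. Those of anti-CD86 with Pam2CSK4 also entered the estimate of the difference between slides. The dose of anti-CD40 was not given in the sources used here, so a difference between both signals at 1 dose and 1 time is a difference between these cultures and not between matched strengths of signal. The labels do not say whether both arrays of a group came from separate mice or cultures. The study's figure legends speak of biological replicates for its microarray data without saying what was replicated. The adjusted p-values therefore measure the spread between these arrays, which may be technical.

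CD40 is a receptor of the TNF receptor family that helper T cells engage through CD40 ligand. It has no enzyme activity of its own and works through TRAF adaptors, which switch on both the canonical NF-kB pathway and the non-canonical one that runs through the kinase NIK (Map3k14) and the subunit p100 (Nfkb2). TLR-2 is a sensor of bacterial lipoproteins that pairs with TLR-1 or TLR-6. It signals through MyD88, the IRAK kinases and TRAF6 to canonical NF-kB and the MAP kinases, and it is best known for driving inflammatory cytokines and chemokines. In B cells both signals can act without the B cell receptor.

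Each slide held 1 anti-CD40 and 1 Pam2CSK4 array, and the log2 signal of a probe (log2 of the processed signal minus the 75th percentile of its array) was therefore compared within slide. Signals of a group are given for slide 1 and then slide 2, while both unstimulated arrays were on slide 1. A difference of anti-CD40 from Pam2CSK4 or anti-CD86 is the mean of both within-slide differences on the log2 scale. Its standard error (SE) comes from a limma fit over all 12 arrays with a slide term. A difference from unstimulated cells has no pair on slide 2 and is instead adjusted by that slide term. It therefore need not equal the difference of the signals given. A gene or probe is called higher or lower, or is said to have risen or fallen, at a Benjamini-Hochberg adjusted p under 0.05 over all probes tested. The anti-CD40 array on slide 2 stood apart from the others. It had 60.6% of its probes well above background, whereas the anti-CD40 array on slide 1 had 47.4% and both Pam2CSK4 arrays had 48.9% and 48.7%. The median probe of that array also lay at -2.80, whereas the other 11 arrays had medians between -3.94 and -3.41. Results without that array are given for the number of probe calls and for some genes only. Other calls, among them the lower calls of the replication list, were also lost without it and are not marked below. All 10 B cell markers were well above background on all 4 arrays. So were all 13 markers of myeloid cells, 10 of 10 of T cells and 7 of 8 of NK cells, and so were 6 of 8 liver markers, whereas 1 of 6 kidney and 2 of 8 muscle markers were.

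Of 31596 probes tested, 4305 (13.6%) were higher and 4587 (14.5%) were lower with anti-CD40 than with Pam2CSK4. When each gene was represented by its brightest probe, 2085 of 16475 genes (12.7%) were higher and 3197 (19.4%) were lower. Large fitted differences lay mostly on the anti-CD40 side, and many were in dim probes. At least 2-fold differences were seen in 239 higher and 107 lower genes, and at least 4-fold differences in 58 higher and 7 lower genes. Genes detected with 1 signal alone were counted at their fitted values. The counts were not repeated without the slide 2 anti-CD40 array. Of the 571 higher and 201 lower probes called at least 2-fold, 383 were well above background on all 4 arrays. Among genes well above background and unsaturated on all 4 arrays, without overlap, Esam, Matn4 and Zbtb46 were at least 4-fold higher. Il12b and Dmbx1 were at least 4-fold lower. All called probes differed in the same direction on both slides, as did 73.1% of all probes tested. The groups did not overlap in 79.2% of the called probes and 36.7% of all probes. For called probes these shares come from the arrays that made the calls and are no separate check. In the plot of slide 1 against slide 2 the differences of 27050 probes well above background on all 4 arrays had a Pearson correlation of 0.57 across probes, which share 4 arrays and are not independent replicates. Since the arrays measured bulk RNA, fewer cells of a type and less RNA per cell cannot be told apart.

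**Figure D1:**
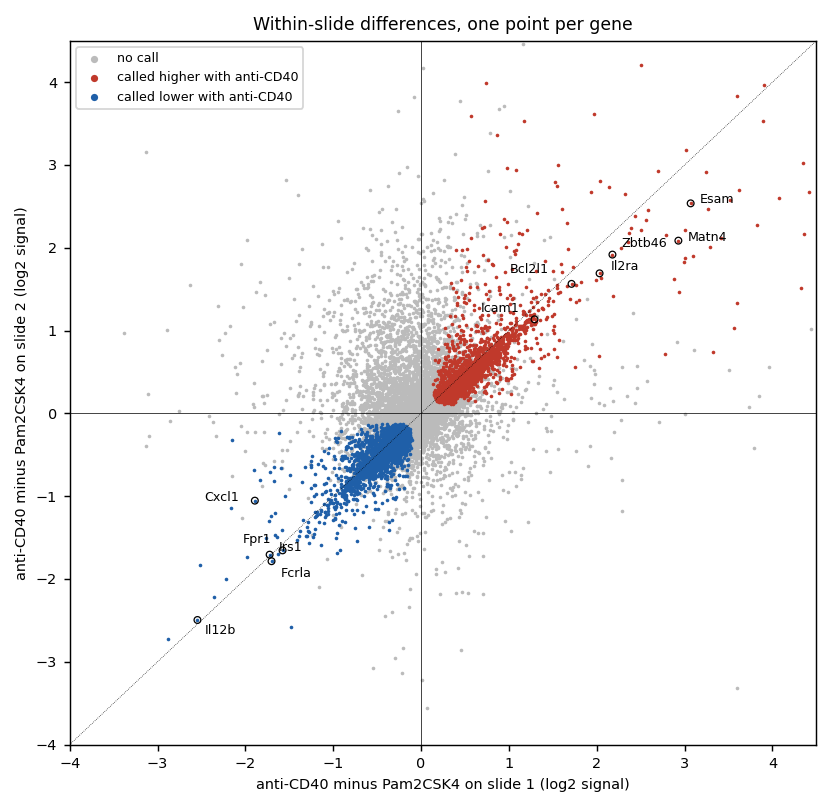
Difference between anti-CD40 and Pam2CSK4 (log2 signal) on slide 1 (x axis) and on slide 2 (y axis), with 1 point for each of 16475 genes (14 lie outside the axes), red where called higher and blue where called lower with anti-CD40. Called genes lie in the upper right and lower left of the plot, Il12b lies near the diagonal, and Esam, Matn4, Zbtb46 and Il2ra lie far along the diagonal.

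The balance between higher and lower genes depended on the scaling. Scaling each array to its median probe moved the median difference of all probes from 0.01 to -0.36 and left 445 higher and 2615 lower probes, so that 14.5% of calls were higher instead of 48.4%. Scaling to the median of the 25967 probes above background on all 12 arrays gave 9336 calls, close to the 8892 of the 75th percentile. Without the anti-CD40 array of slide 2 there were 3017 higher and 2513 lower probes, and 4903 of these 5530 were also called with it. With no slide term 955 probes were higher and 480 lower, and with the replicate number as a block in place of the slide 1825 were higher and 1252 lower. Of 148 genes named by a fixed rule, 133 were called, and 61 of these calls were lost without the slide term and 69 with median scaling. Direction is given below on the 75th percentile scale, and the median of each list and its calls are given on both scales. The calls of every list stand against the shares of all genes on the 75th percentile scale, 12.7% higher and 19.4% lower.

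Against unstimulated cells, 12.8% of genes were higher and 29.5% lower with anti-CD40, while 4.12% were higher and 8.1% lower with Pam2CSK4. Both comparisons share the unstimulated arrays, which lie together on slide 1. The excess of lower calls with Pam2CSK4 did not hold, since 42.4% of its 3511 probe calls were higher, against 70.1% with median scaling (220 higher and 94 lower) and 59.1% to 76.5% with any 1 of its 4 arrays left out, which leaves 149 to 440 calls. For anti-CD40 42.1% of the calls against unstimulated cells were higher, against 727 probes higher and 3100 lower with median scaling. Anti-CD40 also exceeded the other single antibody, anti-CD86, in 15.1% of genes and lay below it in 20.7%, and here 45.9% of probe calls were higher, or 9.86% with median scaling. Of the 239 genes at least 2-fold higher with anti-CD40 than with Pam2CSK4, 175 were above unstimulated cells with anti-CD40, with a median of 1.42, and 178 were above anti-CD86. Pam2CSK4 itself was above unstimulated cells in 48 of these genes and below in 32. Of the 107 genes at least 2-fold lower with anti-CD40, 87 were below unstimulated cells with anti-CD40, with a median of -1.14, and 76 were below anti-CD86. Pam2CSK4 was above unstimulated cells in 25 of them. Both sets of genes were picked by the same anti-CD40 and Pam2CSK4 arrays. These counts are therefore in part set by that choice and are given as description only.

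Both receptors were measured first. Cd40, which encodes the receptor bound by the antibody, had log2 signals of 4.01 and 3.52 with anti-CD40 and of 3.22 and 2.91 with Pam2CSK4, whereas unstimulated cells had 2.71 and 2.72. Both anti-CD40 arrays lay above both Pam2CSK4 arrays, and both stimulated groups lay above unstimulated cells (difference between the signals 0.70, SE 0.07, adjusted p = 0.00099). All 3 probes of Cd40 were called higher, although the call was lost without the slide term (adjusted p = 0.16). Tlr2 went the other way. It had 2.19 and 1.83 with anti-CD40, 2.88 and 2.71 with Pam2CSK4 and 2.52 and 2.59 in unstimulated cells, so that Pam2CSK4 lay above and anti-CD40 below the unstimulated level (-0.78, SE 0.06, adjusted p = 0.00058). Each receptor gene was thus higher with its own stimulus than with the other.

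Tlr1, which encodes a partner of TLR-2, was 2.05-fold higher with anti-CD40. Its log2 signals were 2.40 and 2.18 with anti-CD40, 1.36 and 1.14 with Pam2CSK4 and 0.59 and 0.53 in unstimulated cells, with no overlap between the groups (1.04, SE 0.07, adjusted p = 0.0004). Tlr6, the partner that recognizes diacylated lipopeptides with TLR-2, had 1.56 and 1.36 with anti-CD40 and 1.02 and 0.91 with Pam2CSK4. Those arrays did not overlap either, but the difference did not pass the threshold (0.49, SE 0.18, adjusted p = 0.09). Cd14, a coreceptor that hands lipopeptides and lipopolysaccharide to the TLRs, had 2.57 and 2.05 with anti-CD40, 3.51 and 3.25 with Pam2CSK4 and 3.01 and 3.01 in unstimulated cells. Anti-CD40 thus lay below and Pam2CSK4 above the unstimulated arrays (-1.07, SE 0.07, adjusted p = 0.00042). Cd36, a scavenger receptor that assists TLR-2, differed by -0.30 (adjusted p = 0.02).

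Downstream of TLR-2 the shared adaptor Myd88 was not called. It had 3.30 and 2.98 with anti-CD40 and 3.17 and 3.10 with Pam2CSK4 (-0.00, SE 0.07, adjusted p = 1). Irak3, which encodes the inhibitory kinase IRAK-M, was 1.87-fold lower with anti-CD40 (-0.90, SE 0.07, adjusted p = 0.0006), and all 3 of its probes were called. Irak1 and Irak2 were lower by smaller amounts (-0.28 and -0.35, adjusted p = 0.018 and 0.015), but only 1 of the 3 probes of Irak1 was called, and both calls were lost without the slide 2 anti-CD40 array (adjusted p = 0.1 and 0.083). Traf6, which serves both receptors, was higher (0.63, SE 0.06, adjusted p = 0.0011), and so was Map3k7, which encodes TAK1 (0.43, adjusted p = 0.025). The differences of Tirap, Irak4, Tab1, Tab2 and Tollip lay between -0.15 and 0.10 and did not pass the threshold. Of the 16 receptors and adaptors of TLR-2, 3 rose and 6 fell with anti-CD40 relative to Pam2CSK4, with a median difference of -0.02 (-0.39 with median scaling, where none was higher and 3 lower), while the median of all genes was -0.03.

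Of 14 members of the CD40 and TRAF pathway, 7 were higher and 1 was lower with anti-CD40, with a median of 0.20 that turned to -0.17 with median scaling, where no member was called higher. Traf1, an NF-kB target that stabilizes TRAF2 complexes, had 4.28 and 4.04 with anti-CD40 and 3.61 and 3.41 with Pam2CSK4 (0.65, SE 0.06, adjusted p = 0.00088). Birc2, which encodes the ubiquitin ligase cIAP1, had 4.19 and 4.01 against 3.47 and 3.37 (0.68, SE 0.06, adjusted p = 0.00082). In both genes the anti-CD40 arrays were the higher ones without overlap, and the unstimulated arrays lay below either signal. Birc3 (cIAP2), Tank, Tnfaip3 (the feedback inhibitor A20) and Map3k14 (NIK) were higher by 0.49, 0.42, 0.35 and 0.27. Tnfaip3 and Map3k14 turned to -0.02 and -0.10 with median scaling, with no call. Traf2, Traf3, Cyld, Chuk, Ikbkb and Ikbkg were not called, with differences between -0.09 and 0.13.

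Traf5, a close relative of TRAF2 and TRAF3, was the exception. It had 4.10 and 3.83 with anti-CD40, 5.07 and 4.94 with Pam2CSK4 and 5.23 and 5.30 in unstimulated cells. The anti-CD40 arrays were the low ones, and the difference of -1.05 (SE 0.08, adjusted p = 0.00058) remained -1.02 without the slide 2 anti-CD40 array. Pam2CSK4 differed from unstimulated cells by -0.14 (adjusted p = 0.34).

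NF-kB dimers are made from 5 subunits, and 4 of these genes were higher with anti-CD40, with a median of 0.55 (0.18 with median scaling, where none was called). Nfkb2, the precursor of p52 in the non-canonical pathway, had 5.51 and 5.04 with anti-CD40, 4.73 and 4.34 with Pam2CSK4 and 4.49 and 4.44 in unstimulated cells (0.74, SE 0.05, adjusted p = 0.00042). Nfkb1, the precursor of p50, had 7.86 and 7.49 against 7.15 and 6.93, and its probe was saturated on 2 of the 4 arrays (0.63, SE 0.07, adjusted p = 0.0015). Both genes were highest with anti-CD40 without overlap. Rel, the subunit c-Rel, had 4.71 and 4.45 against 4.12 and 3.93 (0.55, SE 0.08, adjusted p = 0.0042), and only 1 of its 2 probes was called. Relb, the partner of p52, differed by 0.30 (adjusted p = 0.0048) with overlapping arrays, and by -0.07 with no call under median scaling. Rela was not called between the signals (0.10, SE 0.05, adjusted p = 0.23), and it was above unstimulated cells by 0.48 with anti-CD40 and by 0.39 with Pam2CSK4.

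Of 6 members of the IkB family, which hold inhibitors and coactivators of NF-kB, 4 were higher and 1 was lower. Nfkbie, which encodes IkB-epsilon, had 5.69 and 5.69 with anti-CD40, 4.86 and 4.87 with Pam2CSK4 and 4.39 and 4.36 in unstimulated cells (0.83, SE 0.05, adjusted p = 0.00033). Nfkbib (IkB-beta), Nfkbid (IkB-NS) and Bcl3 were higher by 0.74, 0.72 and 0.63, each without overlap. Without the slide term the calls of these 3 genes and of the 4 subunits above were lost, with adjusted p-values of 0.078, 0.14 and 0.12 for the former and from 0.054 (Rel) to 0.44 (Relb) for the latter, whereas Nfkbie and Nfkbiz were still called. Nfkbiz, which encodes IkB-zeta, a coactivator needed for Il12b and Il6 in macrophages, was lower. It had 4.19 and 3.90 with anti-CD40, 4.99 and 4.80 with Pam2CSK4 and 3.11 and 3.06 in unstimulated cells (-0.85, SE 0.07, adjusted p = 0.00068). Both signals raised it above unstimulated cells, by 1.06 for anti-CD40 and 1.91 for Pam2CSK4. Nfkbia, saturated on all 4 arrays, had a difference of 0.07 (adjusted p = 0.69). The median of the 6 genes was 0.68 (0.30 with median scaling, where Nfkbiz alone was called).

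The promoters of some of these genes are shown because NF-kB target genes stood on both sides of the comparison. Windows of 250 bases before RefSeq gene starts (assembly GRCm38.p6) were searched on both strands for the NF-kB (kappa B) consensus. Matches are in capitals, overlapping matches being joined. Only genes with a match are shown, whereas the windows of Il12b, Tnf, Il1b and Icam1 held none. Il2ra, Nfkbie and Nfkb2 were higher and Cxcl1, Cxcl10 and Il6 were lower with anti-CD40, and each sequence is written along the strand of its gene.
Il2ra, chr2:11642542-11642791, plus strand: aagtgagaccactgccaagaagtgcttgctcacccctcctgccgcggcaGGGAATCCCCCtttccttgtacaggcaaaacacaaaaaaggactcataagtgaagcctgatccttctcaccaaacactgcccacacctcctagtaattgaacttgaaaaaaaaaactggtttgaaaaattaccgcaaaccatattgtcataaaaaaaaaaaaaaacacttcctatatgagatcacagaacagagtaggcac
Nfkbie, chr17:45555450-45555699, plus strand: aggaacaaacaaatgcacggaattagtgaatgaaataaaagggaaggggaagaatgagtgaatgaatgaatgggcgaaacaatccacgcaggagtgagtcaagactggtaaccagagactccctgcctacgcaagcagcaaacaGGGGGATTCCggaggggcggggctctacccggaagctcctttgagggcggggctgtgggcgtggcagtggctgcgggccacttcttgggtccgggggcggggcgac
Nfkb2, chr19:46304487-46304736, plus strand: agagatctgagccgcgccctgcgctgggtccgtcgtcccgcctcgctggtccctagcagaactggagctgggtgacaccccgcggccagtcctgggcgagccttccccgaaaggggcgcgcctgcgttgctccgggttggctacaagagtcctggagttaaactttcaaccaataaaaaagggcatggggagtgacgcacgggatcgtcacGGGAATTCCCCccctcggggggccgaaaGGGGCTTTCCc
Cxcl1, chr5:90890995-90891244, plus strand: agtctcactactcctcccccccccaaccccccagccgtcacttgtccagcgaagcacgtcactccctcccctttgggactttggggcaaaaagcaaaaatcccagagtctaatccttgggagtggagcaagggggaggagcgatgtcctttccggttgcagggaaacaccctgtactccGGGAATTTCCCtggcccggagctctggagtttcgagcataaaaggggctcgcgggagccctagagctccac
Cxcl10, chr5:92348890-92349139, minus strand: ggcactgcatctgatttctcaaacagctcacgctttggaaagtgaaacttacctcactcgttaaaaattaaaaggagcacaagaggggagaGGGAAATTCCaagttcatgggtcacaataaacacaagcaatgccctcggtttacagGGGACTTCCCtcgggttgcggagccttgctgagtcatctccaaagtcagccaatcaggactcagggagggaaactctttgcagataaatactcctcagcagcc
Il6, chr5:30012864-30013113, plus strand: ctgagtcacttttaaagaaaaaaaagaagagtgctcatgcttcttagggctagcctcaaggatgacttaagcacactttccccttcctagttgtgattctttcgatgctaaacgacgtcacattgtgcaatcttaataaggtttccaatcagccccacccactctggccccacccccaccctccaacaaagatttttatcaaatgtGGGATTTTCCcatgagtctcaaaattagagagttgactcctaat

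The match of Cxcl1 ended 61 bases before the start and that of Il6 35 bases before it, whereas that of Il2ra lay 191 to 201 bases before it. Nfkb2, of whose 3 windows the first is shown, held 2 matches within 39 bases of the start, and Cxcl10 held 2 matches further upstream. A match was found in 4.46% of the 27025 genes with a window and in 5.34% of the 10008 tested genes with one. It was found in 10 of 141 genes (7.09%) at least 2-fold higher and in 8 of 83 (9.64%) at least 2-fold lower with anti-CD40. Among the lists, 3 of 5 IkB genes, 3 of 6 chemokines and 5 of 15 cytokines with a window held a match, as did none of 15 Myc-linked genes and none of 14 genes of the B cell receptor list. A match is a description of the letters and not a bound site, and no match says only that these letters were not in the window.

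Il12b fell furthest of the genes well above background on all 4 arrays, and other inflammatory cytokines fell with it. Il12b, which encodes the p40 chain shared by IL-12 and IL-23, had log2 signals of -0.73 and -0.81 with anti-CD40, 1.82 and 1.68 with Pam2CSK4 and -0.03 and -0.03 in unstimulated cells. The Pam2CSK4 arrays were far above the rest and the anti-CD40 arrays were below the unstimulated ones, a difference of 5.74-fold between the signals (-2.52, SE 0.07, adjusted p = 0.00021). Without the slide 2 anti-CD40 array it was -2.57. Il6, a growth and differentiation factor for B cells, had -0.27 and -0.69 with anti-CD40, 0.83 and 0.56 with Pam2CSK4 and -0.11 and 0.01 in unstimulated cells (-1.18, SE 0.12, adjusted p = 0.0013). Il1b, which encodes IL-1beta, had 3.99 and 3.80 against 5.09 and 4.99, with 4.28 and 4.30 in unstimulated cells (-1.14, SE 0.09, adjusted p = 0.00057). For both genes the Pam2CSK4 arrays lay above and the anti-CD40 arrays below the unstimulated arrays, although the fall of Il6 against unstimulated cells did not pass the threshold (-0.34, adjusted p = 0.086).

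Tnf was raised by both signals, but less by anti-CD40. It had 1.21 and 0.80 with anti-CD40, 2.09 and 1.80 with Pam2CSK4 and 0.74 and 0.70 in unstimulated cells (-0.94, SE 0.06, adjusted p = 0.00044). Of the 20 cytokine genes tested (of 21 listed), 4 rose and 9 fell with anti-CD40 relative to Pam2CSK4, with a median of -0.32 (-0.69 with median scaling, where none was higher and 10 lower). The 4 that rose, named after their values were seen, were Ebi3, Lta, Il12a and Ltb, of which Ltb turned from 0.35 to -0.02 with median scaling. Ebi3, whose product pairs with other chains to form IL-27 and IL-35, had 4.61 and 4.26 against 3.68 and 3.49 (0.85, SE 0.06, adjusted p = 0.00041), and unstimulated cells had 2.89 and 2.92. Il12a, which encodes the p35 chain of IL-12, was higher by 0.39 with anti-CD40 (0.01 with median scaling), while Il12b, its partner in IL-12, was lower.

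Chemokines showed the lowest median of the 26 lists on both scales, -0.88 and -1.25, with 7 of 11 genes tested lower and 1, Ccl7, higher. The size depended on the background correction, since the median was -0.30 with the normexp method, with 7 lower and 1 higher. Cxcl1, a neutrophil attractant, had -2.16 and -1.35 with anti-CD40, -0.26 and -0.30 with Pam2CSK4 and -2.55 and -2.35 in unstimulated cells (-1.47, SE 0.21, adjusted p = 0.0037). Cxcl10, which attracts CXCR3-bearing T cells, had -0.17 and -0.50 against 1.04 and 0.89, with -0.18 and 0.22 in unstimulated cells (-1.30, SE 0.15, adjusted p = 0.002). Cxcl2, another neutrophil attractant, had -1.15 and -1.63 against -0.25 and -0.33, with -1.11 and -1.12 in unstimulated cells (-1.10, SE 0.17, adjusted p = 0.0052). In these 3 genes Pam2CSK4 was called above unstimulated cells and anti-CD40 was not. The difference of Cxcl1 was -1.83 without the slide 2 anti-CD40 array, whose signal was the higher one of its group.

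Ccl7 and Ccl17 were each detected with 1 signal alone. Ccl7, a monocyte attractant, was at least 2.09-fold higher with anti-CD40 (adjusted p = 0.0014), since neither Pam2CSK4 array was well above background. Its 2 anti-CD40 arrays had -2.00 and -3.13. Ccl17, which attracts CCR4-bearing T cells, was at least 1.61-fold higher with Pam2CSK4 (adjusted p = 0.016), with neither anti-CD40 array well above background. Both adjusted p-values come from fitted values, which use signals below detection, and not from the bounds. With both genes at these bounds the chemokine median was -0.77.

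Cd14, Tlr2, Il1b, Il12b and several chemokines are also expressed by myeloid cells, whose markers were measured on the same arrays. Of 13 such markers, 5 were lower (Lyz1, S100a8, Mpo, Elane and Cd14) and Itgam was higher with anti-CD40 than with Pam2CSK4. Their summed linear signal, relative to the 75th percentile, was 646 and 546 with anti-CD40, 683 and 588 with Pam2CSK4 and 707 and 763 in unstimulated cells. Lyz2 and S100a9 were the largest terms of this sum, at 7.75 and 7.70 on the slide 1 anti-CD40 array. That is the range of Nfkb1, whose probe was saturated on some arrays, and the sum may therefore miss a change. Among the myeloid markers called, Cd14 had the greatest difference and Elane the next at -0.45. Their part in the differences of Cd14, Tlr2, the cytokines and the chemokines was not tested. Of the T and NK cell markers, 1 and 3 were lower and none was higher.

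**Figure D2:**
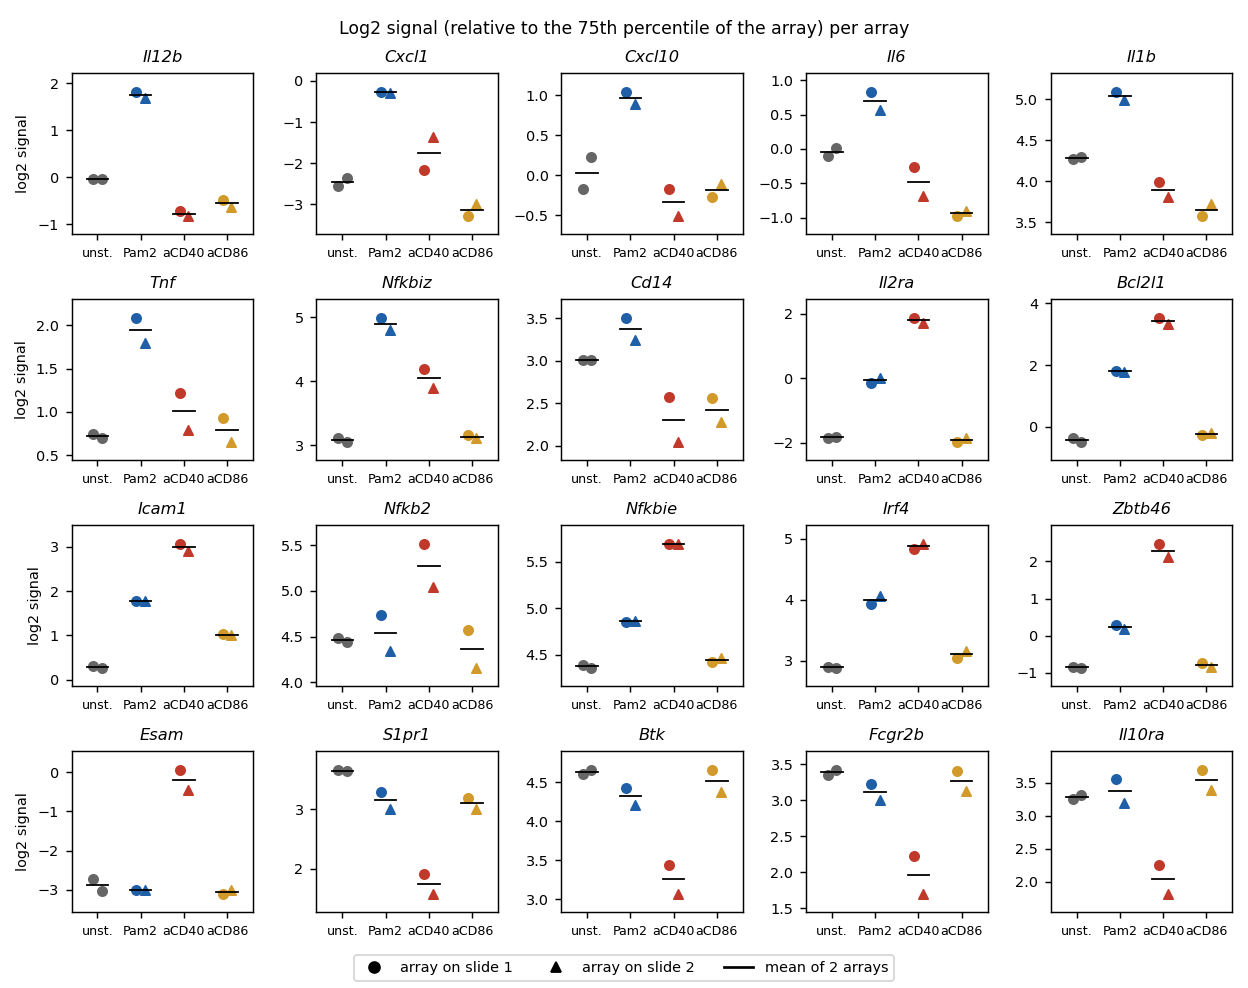
Log2 signal, centred on each array's 75th percentile, for 20 genes (1 panel each, each with its own y axis) in unstimulated cells (unst.) and with Pam2CSK4 (Pam2), anti-CD40 (aCD40) or anti-CD86 (aCD86). Points are arrays (circles slide 1, triangles slide 2) and lines are means of 2 arrays. Il12b, Cxcl1, Cxcl10, Il6 and Il1b are highest with Pam2CSK4, Il2ra, Bcl2l1, Icam1, Nfkbie, Irf4 and Zbtb46 step up from unstimulated through Pam2CSK4 to anti-CD40, and S1pr1, Btk, Fcgr2b and Il10ra are lowest with anti-CD40.

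Of 21 immediate early genes 4 were higher and 8 were lower, with a median of -0.04 (-0.41 with median scaling, where none was higher and 5 lower). Myc, the growth regulator, had 6.77 and 6.39 with anti-CD40, 5.96 and 5.67 with Pam2CSK4 and 4.95 and 5.02 in unstimulated cells (0.77, SE 0.07, adjusted p = 0.00081). All 3 of its probes were called higher, and both groups lay above unstimulated cells without overlapping each other. Dusp4, a phosphatase of MAP kinases, was higher (0.70), whereas Ier3 (-0.65) and the zinc finger factor Egr3 (-0.62) were lower.

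Of 16 activation and costimulatory surface genes 8 were higher and 2 were lower with anti-CD40, with a median of 0.19 that turned to -0.18 with median scaling, where Icam1 was the one gene called. Icam1, the adhesion ligand of LFA-1, had 3.07 and 2.91 with anti-CD40, 1.78 and 1.77 with Pam2CSK4 and 0.31 and 0.27 in unstimulated cells. The 3 groups were well separated (1.21, SE 0.07, adjusted p = 0.00033). Slamf1, a receptor that binds itself on other lymphocytes, had 0.19 and 0.03 against -0.68 and -0.61, with -0.74 and -0.69 in unstimulated cells (0.76, SE 0.10, adjusted p = 0.0031). Fas, the death receptor, was higher by 0.72 (adjusted p = 0.0017), and Icosl, the ligand of the T cell costimulator ICOS, was lower (-0.43, adjusted p = 0.009).

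Receptors for cytokines were split, with 6 of 21 higher, 5 lower and a median of 0.05 (-0.32 with median scaling, where 1 was higher and 3 lower). Their shares were 28.6% higher and 23.8% lower, against 12.7% and 19.4% of all genes. Il2ra, which encodes CD25, the high-affinity chain of the IL-2 receptor, had 1.88 and 1.72 with anti-CD40, -0.15 and 0.02 with Pam2CSK4 and -1.85 and -1.82 in unstimulated cells. Both signals raised it, by 3.61 and 1.75, and the difference between them was 3.63-fold (1.86, SE 0.10, adjusted p = 0.00033). Il21r, the receptor of the helper T cell cytokine IL-21, had 2.88 and 2.48 against 1.75 and 1.52, with 0.96 and 1.00 in unstimulated cells (1.05, SE 0.06, adjusted p = 0.00033). Tnfrsf13c, which encodes the BAFF receptor, was above unstimulated cells with anti-CD40 (0.79) and not called with Pam2CSK4 (0.02), and the signals differed by 0.77 (adjusted p = 0.0005). Il10ra, the signalling chain of the IL-10 receptor, was lower, with 2.25 and 1.82 against 3.56 and 3.19 (-1.34, SE 0.06, adjusted p = 0.00023). Its unstimulated arrays had 3.25 and 3.32, within the range of the Pam2CSK4 arrays.

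Among 15 SOCS and STAT genes, 5 were higher and 3 lower, with a median of 0.20 that turned to -0.18 with median scaling, where none was higher and 1 was lower. Stat6, which carries the IL-4 signal, had 4.46 and 4.13 with anti-CD40, 3.50 and 3.32 with Pam2CSK4 and 3.34 and 3.30 in unstimulated cells (0.88, SE 0.06, adjusted p = 0.00052), and 2 of its 3 probes were called. Stat5a, which serves the IL-2 receptor, was higher by 0.77 and Socs2 by 0.68. Socs3, a feedback inhibitor of IL-6 signalling, was lower, with 3.67 and 3.50 against 4.31 and 4.14 (-0.64, SE 0.05, adjusted p = 0.00049).

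Survival genes were mostly higher with anti-CD40, namely 9 of 12, with 1 lower and a median of 0.54 (0.17 with median scaling, where Bcl2l1 alone was called). Bcl2l1, which encodes Bcl-xL, had 3.53 and 3.34 with anti-CD40, 1.82 and 1.77 with Pam2CSK4 and -0.35 and -0.48 in unstimulated cells. No groups overlapped, and the signals differed 3.11-fold (1.64, SE 0.10, adjusted p = 0.00035) with all 3 probes called. Pim1, a survival kinase, had 5.33 and 4.86 against 4.22 and 3.92, with 2.77 and 2.88 in unstimulated cells (1.02, SE 0.07, adjusted p = 0.00047). Birc5, which encodes survivin, was higher by 0.84 and was not above unstimulated cells with Pam2CSK4 (0.10, adjusted p = 0.4). Bcl2a1b, one of several near-identical A1 genes whose probes may not be told apart, was higher by 0.80.

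Pro-apoptotic genes numbered 2 higher and 5 lower of 13, with a median of -0.09 (-0.46 with median scaling, where none was higher and 2 lower). Their shares were 15.4% higher and 38.5% lower, against 12.7% and 19.4% of all genes. Bid, which links death receptors to mitochondria, had 2.98 and 2.59 with anti-CD40 and 2.00 and 1.74 with Pam2CSK4, and unstimulated cells had 1.83 and 2.02 (0.92, SE 0.09, adjusted p = 0.0011). Anti-CD40 was the high group. Casp9, the initiator caspase of the mitochondrial pathway, had -0.02 and -0.23 against 0.70 and 0.62, with 1.10 and 1.02 in unstimulated cells (-0.78, SE 0.09, adjusted p = 0.002). Bmf and Casp8 were lower, with differences of -0.56 and -0.28.

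Of 20 regulators of B cell fate 6 were higher and 8 lower, with a median of -0.17 (-0.54 with median scaling, where 4 were lower and none higher). Irf4, which is needed for class switching and plasma cells, had 4.84 and 4.92 with anti-CD40, 3.93 and 4.05 with Pam2CSK4 and 2.90 and 2.89 in unstimulated cells (0.88, SE 0.05, adjusted p = 0.00033). Its 3 groups did not overlap. Batf, a partner of IRF4 on DNA, was higher by 0.70 (adjusted p = 0.0023). Id3, an inhibitor of E proteins, had 0.76 and 0.37 against 1.55 and 1.27, with 1.51 and 1.57 in unstimulated cells (-0.85, SE 0.06, adjusted p = 0.00045), and its relative Id2 was lower too (-0.52). Both Id2 and Id3 were below unstimulated cells with anti-CD40 (-0.25 and -0.80).

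Genes of the B cell receptor complex and its coreceptors were lower more often than higher, 8 against 3 of 18, with a median of -0.13 (-0.50 with median scaling, where none was higher and 5 lower). Btk, the kinase downstream of the receptor, had 3.44 and 3.07 with anti-CD40, 4.43 and 4.21 with Pam2CSK4 and 4.60 and 4.66 in unstimulated cells. Only anti-CD40 lay far below the rest (-1.07, SE 0.06, adjusted p = 0.00033). Fcgr2b, the inhibitory Fc receptor, had 2.23 and 1.70 against 3.22 and 3.0, with 3.35 and 3.42 in unstimulated cells (-1.15, SE 0.08, adjusted p = 0.00045), and all 3 probes were called. Dok3, an adaptor that dampens receptor signals, was lower (-0.94, adjusted p = 0.00047). Fcer2a, which encodes CD23, was higher, with 3.62 and 3.33 against 2.74 and 2.42 and 2.28 and 2.26 in unstimulated cells (0.90, SE 0.05, adjusted p = 0.00033). The lower side of the list thus held activating and inhibitory members. Of 10 B cell markers, some of them in this list, 2 were higher and 6 lower, and their summed linear signal was 437 and 372 with anti-CD40 and 400 and 350 with Pam2CSK4. Cd79b was the largest term of this sum, at 7.65 on the slide 1 anti-CD40 array, a level at which probes may be saturated.

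Receptors that guide lymphocytes through tissues were lower in 6 and higher in 2 of 17, with a median of -0.16 (-0.53 with median scaling, where none was higher and 5 lower). S1pr1, which directs exit from lymphoid organs, had 1.92 and 1.59 with anti-CD40, 3.30 and 3.0 with Pam2CSK4 and 3.66 and 3.64 in unstimulated cells. It was below unstimulated cells with anti-CD40 (-1.77, adjusted p = 0.00011) and with Pam2CSK4 (-0.37, adjusted p = 0.044), and it differed 2.64-fold between them (-1.40, SE 0.08, adjusted p = 0.00034). S1pr4 and Ccr6 were also lower (-0.86 and -0.71). Cxcr5, which guides B cells to follicles, was higher by 0.53, with 7.56 and 7.25 against 7.01 and 6.74.

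The D-type cyclins diverged. Ccnd2 had 5.03 and 4.51 with anti-CD40, 3.53 and 3.16 with Pam2CSK4 and 2.83 and 2.84 in unstimulated cells (1.43, SE 0.06, adjusted p = 0.00023), with all 3 probes called higher. Ccnd3 had 2.62 and 2.24, 3.68 and 3.45, and 3.44 and 3.47 in the same order (-1.14, SE 0.07, adjusted p = 0.00035). Anti-CD40 was therefore the highest group for Ccnd2 and the lowest for Ccnd3. The CDK inhibitors Cdkn1a (p21) and Cdkn2d (p19) were lower (-0.62 and -0.58). In all, 2 of 16 G1 cyclins and CDK inhibitors were higher and 7 were lower, with a median of -0.26 (-0.63 with median scaling, where 1 was higher and 5 lower). Replication genes had 1 higher (Mcm3, 0.47) and 2 lower (Gins1, -0.40, and Mcm6, -0.26) of 15 and a median of 0.01 (-0.37 with median scaling, where none was called). These shares, 6.67% and 13.3%, were within 1 member of those of all genes.

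Ribosome and nucleotide synthesis genes linked to Myc were higher in 13 of 20 and lower in none, with a median of 0.44 (0.07 with median scaling, where Nolc1 alone was called). Nolc1, a nucleolar chaperone of small nucleolar ribonucleoproteins, had 5.15 and 4.77 with anti-CD40, 3.97 and 3.56 with Pam2CSK4 and 3.44 and 3.46 in unstimulated cells (1.19, SE 0.05, adjusted p = 0.00023). Polr1b, a subunit of RNA polymerase I, had 1.45 and 1.03 against 0.32 and 0.01, with -0.02 and 0.02 in unstimulated cells (1.08, SE 0.07, adjusted p = 0.00041). Gnl3, which encodes nucleostemin, had 3.29 and 3.02 against 2.26 and 2.02, with 2.29 and 2.21 in unstimulated cells (1.01, SE 0.06, adjusted p = 0.00033). For Gnl3 the Pam2CSK4 arrays lay within or below the range of the unstimulated ones, and the anti-CD40 arrays above it. Nop58, a core protein of box C/D particles, was higher by 0.81.

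Metabolic lists are set beside all genes, of which 12.7% were higher and 19.4% lower, with a median of -0.03. The shares higher and lower were 41.7% and 16.7% for transporters and 14.3% and 42.9% for glycolytic enzymes. For cholesterol genes they were 35.3% and 17.6%. Glucose and amino acid transporters were higher in 5 and lower in 2 of 12 (median -0.00, and -0.37 with median scaling, where none was higher and 3 lower). Slc7a5 and Slc7a6, which carry large neutral and cationic amino acids, and the monocarboxylate carrier Slc16a1 were higher by 0.69, 0.80 and 0.71. Slc7a1, a carrier of cationic amino acids, was lower, with -2.94 and -2.36 against -1.45 and -1.61 (-1.12, SE 0.18, adjusted p = 0.0055). Glycolytic enzymes were lower in 6 and higher in 2 of 14 (median -0.16, and -0.53 with median scaling, where none was higher and 2 lower). Hk2, the inducible hexokinase, was higher at 0.68, whereas Eno1, Pfkm and Tpi1 were lower at -0.44, -0.39 and -0.37. Of 17 cholesterol genes 6 were higher and 3 lower (median -0.07, and -0.44 with median scaling, where none was higher and 1 lower), with Srebf2, the master regulator, at 0.60, Idi1 at 0.51 and Mvd at 0.43. Lss was called at 1.07 but was well above background on only 1 of the 4 arrays.

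Class II antigen presentation genes were higher in 2 and lower in 3 of 11 (median 0.02, and -0.35 with median scaling, where none was higher and 1 lower). With 18.2% higher and 27.3% lower, this list was within 1 member of the shares of all genes. Ciita, the class II transactivator, was lower at -0.47 and H2-DMb1 at -0.38, whereas H2-DMa was higher by 0.38 and H2-Eb1 by 0.92. Class I and immunoproteasome genes were lower in 6 and higher in 1 of 13 (median -0.17, and -0.54 with median scaling, where none was higher and 3 lower). All 3 catalytic subunits of the immunoproteasome were lower. Psmb8, Psmb9 and Psmb10 differed by -0.63, -0.58 and -0.68 (adjusted p = 0.0014, 0.001 and 0.00055), and each lay below unstimulated cells with anti-CD40. Psmb10 had 4.84 and 4.49 with anti-CD40, 5.51 and 5.18 with Pam2CSK4 and 5.65 and 5.66 in unstimulated cells. The proteasome activator subunit Psme2 was higher by 0.50.

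Interferon-stimulated genes were lower in 4 and higher in 2 of 18 (median -0.07, and -0.44 with median scaling, where none was higher and 2 lower). These shares, 11.1% higher and 22.2% lower, lay near the 12.7% and 19.4% of all genes. Rsad2, the antiviral protein viperin, had -2.13 and -2.28 with anti-CD40 and -1.39 and -1.58 with Pam2CSK4 (-0.72, SE 0.06, adjusted p = 0.00086), and Usp18 and Oasl1 were lower at -0.48 and -0.37. Irf1 was higher by 0.32 but turned to -0.05, with no call, under median scaling. GIMAP genes, GTPases of lymphocyte survival, were higher in 4 and lower in 1 of 8 (median 0.16, and -0.21 with median scaling, where none was called), with Gimap4 at 0.77, Gimap9 at 0.43, Gimap8 at 0.33 and Gimap1 at -0.42. Gimap8 turned to -0.04, with no call, under median scaling. Unfolded protein response genes were lower in 4 of 14 and higher in none (median -0.16, and -0.53 with median scaling, where none was called), namely Ddit3 (-0.39), Hsp90b1 (-0.31), Creld2 (-0.26) and Asns (-0.24). The share lower was 28.6%, against 19.4% of all genes.

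**Figure D3:**
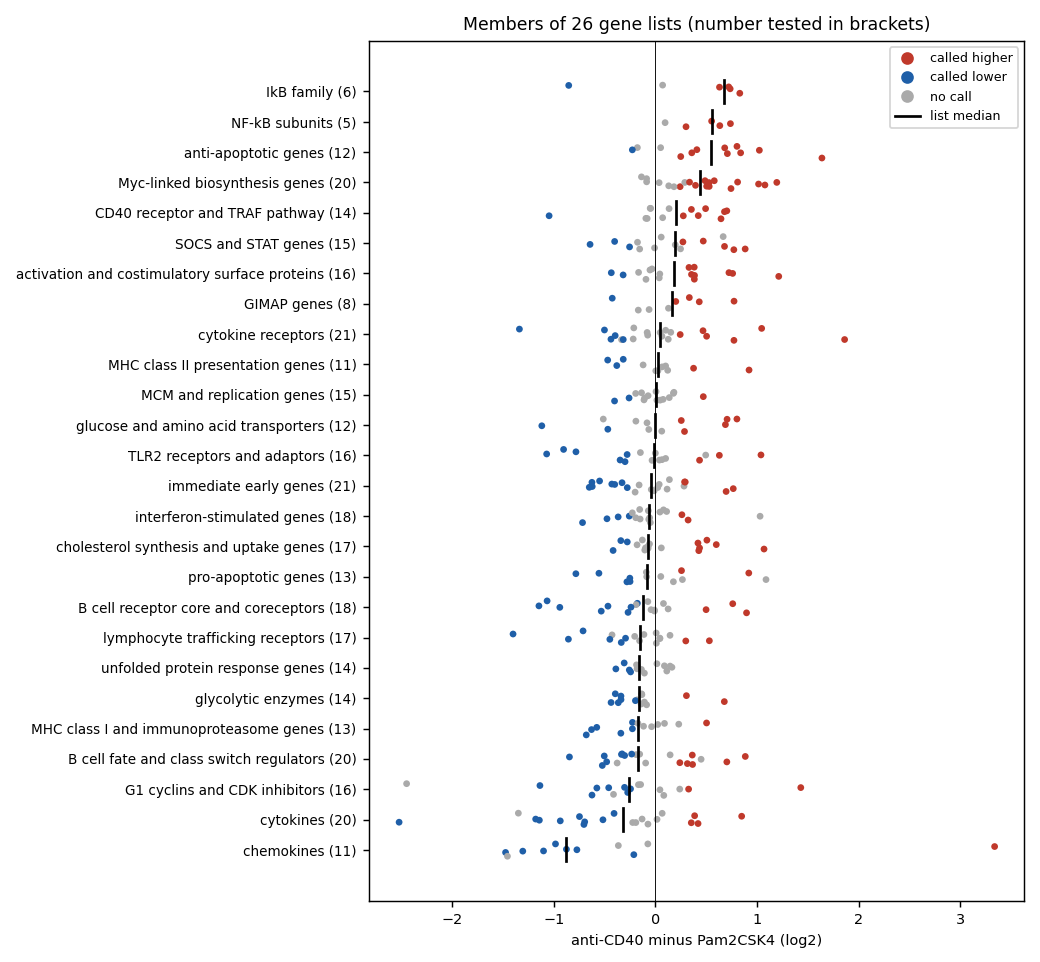
Difference between anti-CD40 and Pam2CSK4 (log2, x axis) for the tested members of 26 gene lists (y axis, ordered by median), with red points called higher, blue called lower, grey not called and black bars at list medians. Ccl7, the chemokine farthest to the right, and Ccl17 are drawn at fitted values, for which the text gives bounds. IkB, NF-kB, survival and Myc-linked genes lie at the top with medians of 0.68, 0.55, 0.54 and 0.44, and chemokines and cytokines lie at the bottom with -0.88 and -0.32.

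The greatest rises among genes well above background and unsaturated on all 4 arrays were in Esam, Matn4 and Zbtb46. Esam, an endothelial adhesion molecule, had 0.06 and -0.46 with anti-CD40, -3.01 and -3.00 with Pam2CSK4 and -2.73 and -3.02 in unstimulated cells (2.80, SE 0.18, adjusted p = 0.00041). It was above unstimulated cells with anti-CD40 (2.79, adjusted p = 0.00025) and not called with Pam2CSK4 (-0.02, adjusted p = 0.97). Matn4, a matrix protein, had 0.07 and -0.32 against -2.85 and -2.40, with -1.87 and -2.01 in unstimulated cells (2.51, SE 0.22, adjusted p = 0.00082). Zbtb46, a transcription factor best known from dendritic cells, had 2.48 and 2.11 against 0.30 and 0.19, with -0.84 and -0.86 in unstimulated cells (2.05, SE 0.08, adjusted p = 0.00023). For Zbtb46 both signals lay above unstimulated cells. The kinase Yes1 (1.80), Bcl9l (1.74), Gm9106 (1.66), the ciliary genes Foxj1 (1.62) and Dnahc17 (1.61), the splicing factor U2af1 (1.60) and the olfactory receptor Olfr1394 (1.59) completed the 12 highest with Il2ra and Bcl2l1. The call of Olfr1394 was lost without the slide term (adjusted p = 0.13).

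After Il12b, the greatest falls were in Dmbx1 (-2.29) and Tm4sf4 (-1.86). Dmbx1 had -2.56 and -1.27 with anti-CD40 and -0.20 and 0.95 with Pam2CSK4, with both groups higher on slide 2, and the calls of Dmbx1 and Tm4sf4 were lost without the slide term (adjusted p = 0.098 and 0.21). Fcrla, an intracellular Fc receptor-like protein of B cells, had 2.55 and 2.37 against 4.25 and 4.15, with 4.49 and 4.45 in unstimulated cells (-1.74, SE 0.06, adjusted p = 0.00023). It was below unstimulated cells with anti-CD40 (-1.98) and not called with Pam2CSK4 (-0.23, adjusted p = 0.074). Irs1, the insulin receptor substrate, had -1.04 and -1.26 against 0.69 and 0.45, with 1.02 and 0.99 in unstimulated cells (-1.72, SE 0.07, adjusted p = 0.00023). Fpr1, the formyl peptide receptor of phagocytes, had 0.37 and -0.01 against 1.95 and 1.65, with 0.83 and 0.85 in unstimulated cells (-1.62, SE 0.05, adjusted p = 0.00021). Gpr84, a receptor for fatty acids in myeloid cells, was lower at -1.43, and both Fpr1 and Gpr84 were above unstimulated cells with Pam2CSK4 and below with anti-CD40. The part of myeloid cells, whose marker levels are given above, was not tested. Xkrx (-1.57), Gm7564 (-1.56), Gm4595 (-1.52), Cxcl1 and Ripor1 (-1.47) made up the rest of the 12 lowest.

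Some genes were detected (well above background) by both arrays of 1 signal and by neither of the other. Those whose bound kept this direction numbered 130 with anti-CD40 alone and 46 with Pam2CSK4 alone. On slide 2 the anti-CD40 array had 60.6% of its probes well above background and the Pam2CSK4 array 48.7%. The part of this gap in both counts was not tested, and the counts are not read as a result. Saa3, an acute phase protein, was at least 5.17-fold higher with Pam2CSK4 (adjusted p = 0.00033), with -1.17 and -1.37. It was followed by Gm4224 (at least 5.01-fold, adjusted p = 0.0069), Gm6377 (at least 2.40-fold, 0.029), Pnma1 (at least 2.12-fold, 0.0028) and 2210408F21Rik (at least 2.09-fold, 0.0019). On the anti-CD40 side Lce3c was at least 7.37-fold higher (adjusted p = 0.015), Ntng1 at least 5.41-fold (0.007), Gm13496 at least 4.38-fold (0.033), LOC100046688 at least 4.19-fold (0.0012) and Kctd12b at least 4.09-fold (0.12, not called). Both anti-CD40 arrays were far apart for Lce3c (1.14 and -2.64), Ntng1 (0.44 and -2.83) and Kctd12b (-3.26 and 0.05). The adjusted p-values of these genes come from fitted values, which use signals below detection, and not from the bounds. Such probes may have entered the test only through a group in which they were high, so these p-values add no support.

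Placing both signals beside unstimulated cells gave several patterns. Il2ra, Bcl2l1, Icam1, Pim1, Irf4, Myc and Ccnd2 were above unstimulated cells with either signal and further above with anti-CD40. Gnl3, Tnfrsf13c and Birc5 were called above unstimulated cells with anti-CD40, whereas with Pam2CSK4 they had differences of -0.01, 0.02 and 0.10 and were not called. Nfkbiz and Tnf were above with either signal and further above with Pam2CSK4. Il12b, Il1b, Tlr2 and Cd14 were above with Pam2CSK4 and below with anti-CD40. Btk, Fcgr2b, Dok3, Id3 and Ccnd3 were below with anti-CD40 and not called with Pam2CSK4.

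**Figure D4:**
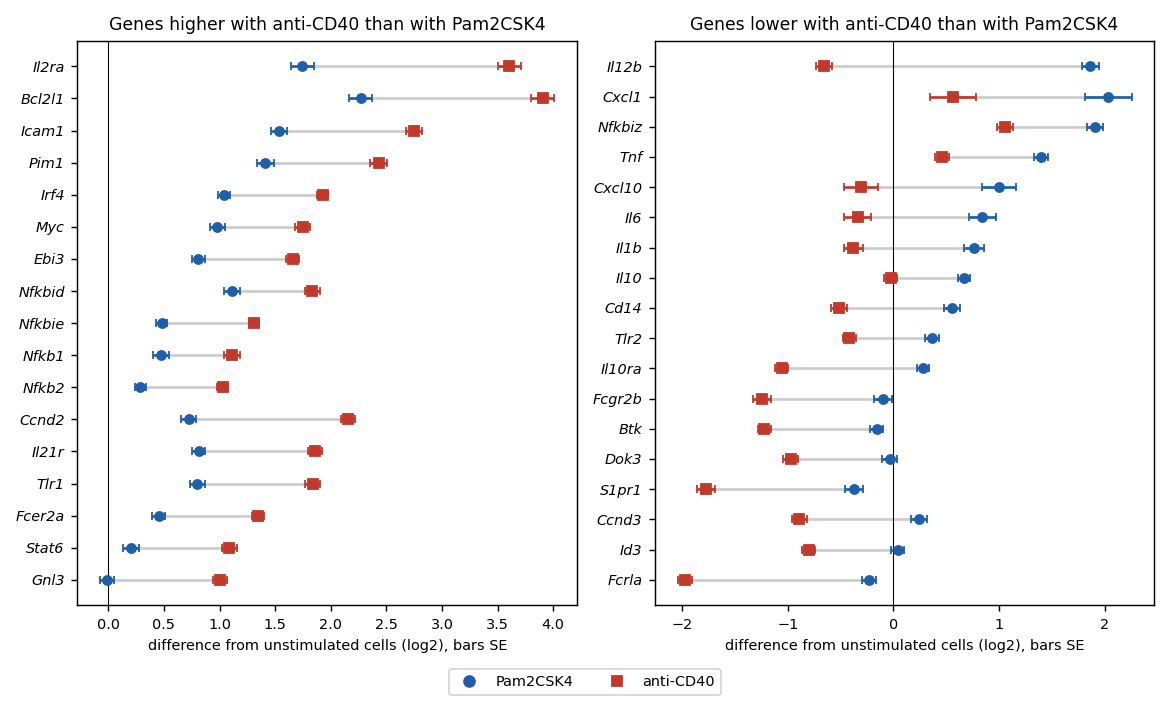
Difference from unstimulated cells (log2, x axis) with Pam2CSK4 (blue circles) and with anti-CD40 (red squares) for 17 genes higher and 18 genes lower with anti-CD40 than with Pam2CSK4, with bars of 1 SE from the fit. Among the higher genes both points mostly lie to the right of 0, whereas Il12b, Cxcl10, Il6, Il1b, Cd14 and Tlr2 have the Pam2CSK4 point to the right and the anti-CD40 point to the left of 0.

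Anti-CD40 was also set beside anti-CD86, the other single antibody. Il2ra (3.71), Bcl2l1 (3.68), Icam1 (1.98), Ebi3 (2.03), Myc (1.94) and Irf4 (1.77) were all called higher with anti-CD40 than with anti-CD86. S1pr1 (-1.35), Btk (-1.26), Fcgr2b (-1.30) and Il10ra (-1.51) were called lower. Il12b had -0.73 and -0.81 with anti-CD40 and -0.47 and -0.64 with anti-CD86, and the difference of -0.21 did not pass the threshold (adjusted p = 0.065). Tlr2 (0.05, adjusted p = 0.59) and Cd14 (-0.11, adjusted p = 0.25) were likewise not called between both antibodies. Neither were Matn4 (0.57, adjusted p = 0.092), Tm4sf4 (0.36, 0.15), Fpr1 (-0.0015, 0.98) and Gpr84 (-0.30, 0.074). Matn4 had -0.51 and -0.86 with anti-CD86. The others of the 12 highest and 12 lowest genes were called, Dmbx1 (1.58) and Cxcl1 (1.37) as higher with anti-CD40 than with anti-CD86.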

How the data were processed

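Total RNA of 12 samples in 6 groups was hybridized to 1-colour Agilent mouse arrays. The deposited processed signal is a linear intensity, background-subtracted by the authors with Feature Extraction 10.5.1.1. The deposited table of normalized values is in log2 units and differed from the log2 processed signal by 1 constant per array, within 0.01 for all but a few probes (at least 99.98% of probes on each array). It was used as an alternative. The authors' methods compared groups without a slide term, which was also run as an alternative. No column was left unused (0).

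Log2 signals were centred on the 75th percentile of the array, and control spots and outlier spots (5 to 35 an array) were left out. Of 61307 probes, 31666 passed the scanner's flag for signal well above background in both replicates of 1 or more groups, and 31596 of these had a value on every array. Saturated spots (987 to 1206 an array) were kept. The precision is limited by the number of arrays. The limma model held group and slide over all arrays (limma 3.58.1, data.table (version 1.17.8), R 4.3.3, and Python 3.11.15 with numpy 2.4.6, pandas 2.3.3 and matplotlib 3.10.9) and was tested on simulated data. Slide 1 held 8 arrays, among them both unstimulated ones, and scan and slide coincided. The deviations of the anti-CD40 and Pam2CSK4 arrays of 1 slide from their group means had a correlation of 0.55 across probes. A gene was given by its brightest probe, and 36 of 5014 genes with several probes had opposite calls.

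Genes named were the 12 highest and 12 lowest that passed the threshold without overlap, were detected without saturation on the 4 arrays and changed alike on both slides; all receptor, adaptor, NF-kB and IkB genes; up to 4 called members with the greatest difference in each other list; and the 5 greatest bounds each way. A bound set the mean of the detected group against, on each array of the other group, the higher of the lowest signal well above background and the probe's own. Members and lists were chosen with earlier results of these data known. Of the members of the 26 lists, 10 were not tested, being absent from the array or failing that filter. Symbols are those of the array, updated through RefSeq (Esam was listed as Esam1, Ripor1 as Fam65a and Acod1 as Irg1). Alternatives covered scaling, background correction, source of values, filters, slide and replicate terms, samples in the fit, moderation, saturation and leaving out each array.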

Additional observations from a re-analysis of the deposited data

How the results depend on the processing

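With 2 arrays a group, calls rested on the spread shared over all 12 arrays and on the slide term. The 8892 calls between anti-CD40 and Pam2CSK4 became 3060 with median scaling (2373 shared) and 9336 with scaling to the median of probes above background on all arrays, which was chosen after seeing the data. They became 3435 with no filter on dim probes, 1435 with no slide and no replicate block, 3077 with the replicate block, 1541 without moderation and slide, and 0 with limma on the 4 compared arrays (8526 at an unadjusted p under 0.05, against 12600 in the full fit) or on slide 1 (9175 unadjusted). Leaving out 1 array gave 3786 to 7225, with 3786 without Pam2CSK4 replicate 2, 4424 without Pam2CSK4 replicate 1 and 5530 without anti-CD40 replicate 2. The replicate numbers coincide with the slides for both groups, but not for unstimulated cells.

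For anti-CD40 against unstimulated cells 11777 calls became 3827 with median scaling, 6495 with no filter, 5327 with no slide and no replicate block, 7269 on slide 1, 4979 without moderation and slide, 0 on the compared arrays (12783 unadjusted) and 7835 to 10048 with 1 array left out. For Pam2CSK4 against unstimulated cells 3511 calls became 314 with median scaling (70.1% higher against 42.4%), 130 with no filter, 46 with no slide and no replicate block, 245 with the replicate block, 170 without moderation and slide, 5885 with an intensity trend and robust settings, 0 on the compared arrays (7059 unadjusted) or slide 1 (7849 unadjusted) and 149 to 440 with 1 array left out, so that each of its 4 arrays decided this count. For anti-CD40 against anti-CD86 11008 calls became 6283 with no filter, 3198 with no slide and no replicate block, 5428 with the replicate block, 3291 on slide 1, 3146 without moderation and slide, 1750 on the compared arrays and 7325 to 9453 with 1 array left out, while median scaling gave 7585, of which 9.86% were higher. The causes were not tested.

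With median scaling Map3k14 (-0.10), Tnfaip3 (-0.017), Relb (-0.070), Irf1 (-0.050) and Gimap8 (-0.038) reversed and were not called, as did Ltb (-0.018), which was picked after its value was seen. The 133 called genes of the naming rule kept their sign in all other settings in which they were tested.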

Other observations

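Outside the gene lists, several functional groups were seen on either side, and the genes in them were picked after their values were seen, so their counts support nothing. Enzymes of nucleotide synthesis were higher with anti-CD40, namely Atic (1.36, SE 0.08, adjusted p = 0.00039) and Ppat (1.06, SE 0.07, adjusted p = 0.00044) of the purine pathway and Ctps, which makes CTP (1.15, SE 0.06, adjusted p = 0.00033). Against unstimulated cells Ppat and Ctps were higher by 1.27 and 1.24 with anti-CD40 and were not called with Pam2CSK4 (0.21 and 0.09). Nucleolar proteins outside the Myc-linked list, Gar1 (1.18), Nop16 (1.14), Grwd1 (1.04) and Nop2 (0.90), were higher too. Prmt1, the main arginine methyltransferase, had 4.02 and 3.65 with anti-CD40, 2.64 and 2.38 with Pam2CSK4 and 3.53 and 3.41 in unstimulated cells, so that it was above the unstimulated level with one signal and below it with the other (1.32, SE 0.06, adjusted p = 0.00023).

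Surface and signalling proteins of lymphocytes differed as well. Btla, an inhibitory receptor, had 2.04 and 1.95 with anti-CD40 against 0.68 and 0.51 with Pam2CSK4, with 0.57 and 0.51 in unstimulated cells (1.40, SE 0.07, adjusted p = 0.0003). Il15ra (1.33), Sema7a (1.23) and Swap70, a B cell protein of the class switch and of cell motility (1.18), were higher. The antiviral ubiquitin ligase Trim25 (-1.39), the immune brake Tnfaip8l2 (-1.18) and the B cell adaptor Dapp1 (-1.01) were lower. Genes best known from activated macrophages, namely Il1rn (-1.23), Acod1 (-1.05), Clec4e (-0.95) and Ccrl2 (-0.95), were lower with anti-CD40, each being above unstimulated cells with Pam2CSK4. The part of myeloid cells in these values was not tested.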
